A study of Mus musculus with 4 samples.

Results

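Creatine reaches a cell either by uptake through Slc6a8, the sodium- and chloride-dependent creatine transporter, or by synthesis, in which Gatm makes guanidinoacetate from arginine and glycine and Gamt methylates it to creatine. Creatine kinases then move phosphate between ATP and creatine. Ckb and Ckm encode the cytosolic brain-type and muscle-type enzymes, and Ckmt1 and Ckmt2 the ubiquitous and sarcomeric enzymes of the mitochondrial intermembrane space. These 7 genes, chosen by name, are described here among 21887 protein-coding genes. For each gene, peaks were taken within its span plus 10 kb, called the locus below, and within its span plus 50 kb.

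The peaks come from ATAC-seq, an assay that reads out where the enzyme Tn5 can cut and tag open DNA, in mouse bone marrow-derived macrophages on a C57BL/6 background. Each library was made from 50000 cells that had been cultured for 5 days with 10% M-CSF, the growth factor that drives bone marrow cells to macrophages. The 4 groups were wild-type (WT) and Slc6a8-/y (KO) macrophages, each either untreated or stimulated for 6 h with 10 ng/mL of IL-4, a type 2 cytokine that polarizes macrophages. Slc6a8 lies on the X chromosome, no other altered allele is named, and the sources used here do not give the number or age of the mice. The study asked how chromatin accessibility changes in polarizing macrophages that lack creatine.

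Each group held 1 library, so no value has a replicate error, no test was run, and every difference below is one between libraries and not between conditions. The score of a peak is the value the authors deposited. It is ranked within its own list only, as a percentile in which 100 would be above every other peak. The lists held 17339 (untreated) and 9930 (IL-4) peaks in WT, and 13714 (untreated) and 10443 (IL-4) in KO, and the read depth behind them is unknown. A peak absent from a list may lie just below its lowest score of about 50. The lists differ in length, so equal percentiles in different lists are not equal ranks from the top. Of 12 macrophage markers, 7 (untreated) and 3 (IL-4) had a peak within 1 kb of either gene end in WT, and 5 (untreated) and 3 (IL-4) in KO, and none of the 12 had one in all 4 libraries. Over all protein-coding genes the shares were 38.2% and 28.4% in WT and 34.8% and 29.0% in KO, so the macrophage markers did not stand above them in the IL-4 libraries, at 3 of 12 in each. With a peak anywhere in the locus the macrophage counts were 12, 9, 8 and 6, beside 56.0%, 43.3%, 51.6% and 44.1% of all protein-coding genes. Of 12 skeletal and heart muscle markers, none had a gene-end peak in any library, and 2, 0, 1 and 1 had a locus peak. None of 8 kidney tubule and hepatocyte markers had a gene-end peak and 2, 0, 0 and 1 a locus peak, and 5 fibroblast markers had neither. Among 8 neuron markers Syn1 had a gene-end peak in the untreated libraries. Among 5 T cell markers Cd3d had one in all 4 libraries, and in WT untreated so did Ms4a1 of 4 B cell markers and S100a8 of 6 neutrophil markers. Locus peaks were found at 3, 2, 2 and 3 of the neuron markers and at 2 of the T cell markers in each library. For B cell markers the locus counts were 2, 1, 1 and 1, and for neutrophil markers 1, 0, 0 and 0. The part of other cells in the results below was not tested.

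Peaks lay over the start sites of the synthesis genes, Gatm and Gamt, and not over those listed for the kinases. The start of Slc6a8 was not listed. Of 21263 listed promoters, 57.6% had no peak within 1 kb of the start in any library. Gamt had a peak over its start in all 4 libraries and Gatm in 3. No peak lay within 1 kb of a known start of Ckb, Ckm, Ckmt1 or Ckmt2, and none lay within 10 kb of Slc6a8 at all. Together the 7 loci held 8 (untreated) and 6 (IL-4) peaks in WT, and 5 (untreated) and 3 (IL-4) in KO. With every list cut to its 9930 highest-scoring peaks the numbers were 3 and 6 in WT and 3 and 3 in KO, so that in WT the order of the untreated and IL-4 libraries turned and in KO the difference was gone. Within 50 kb the numbers were 17, 14, 13 and 12 in the order given first. At least 1 locus peak was found at 5 of the 7 genes in WT untreated, beside 56.0% of all protein-coding genes, and at 5 in WT IL-4, beside 43.3%. In KO untreated it was 3, beside 51.6%, and in KO IL-4 3, beside 44.1%. Within 50 kb, all 7 had a peak in WT untreated (71.9% of all genes), WT IL-4 (62.8%) and KO untreated (68.9%), and 6 in KO IL-4 (63.9%), where Ckb had none. Merging these peaks across libraries gave 20 regions, of which 7 had a peak in all 4 libraries, 4 in 3, 6 in 2 and 3 in 1. That share in all 4 libraries, 35.0%, stood beside 32.5% of all 20540 merged regions in the series.

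**Figure D1:**
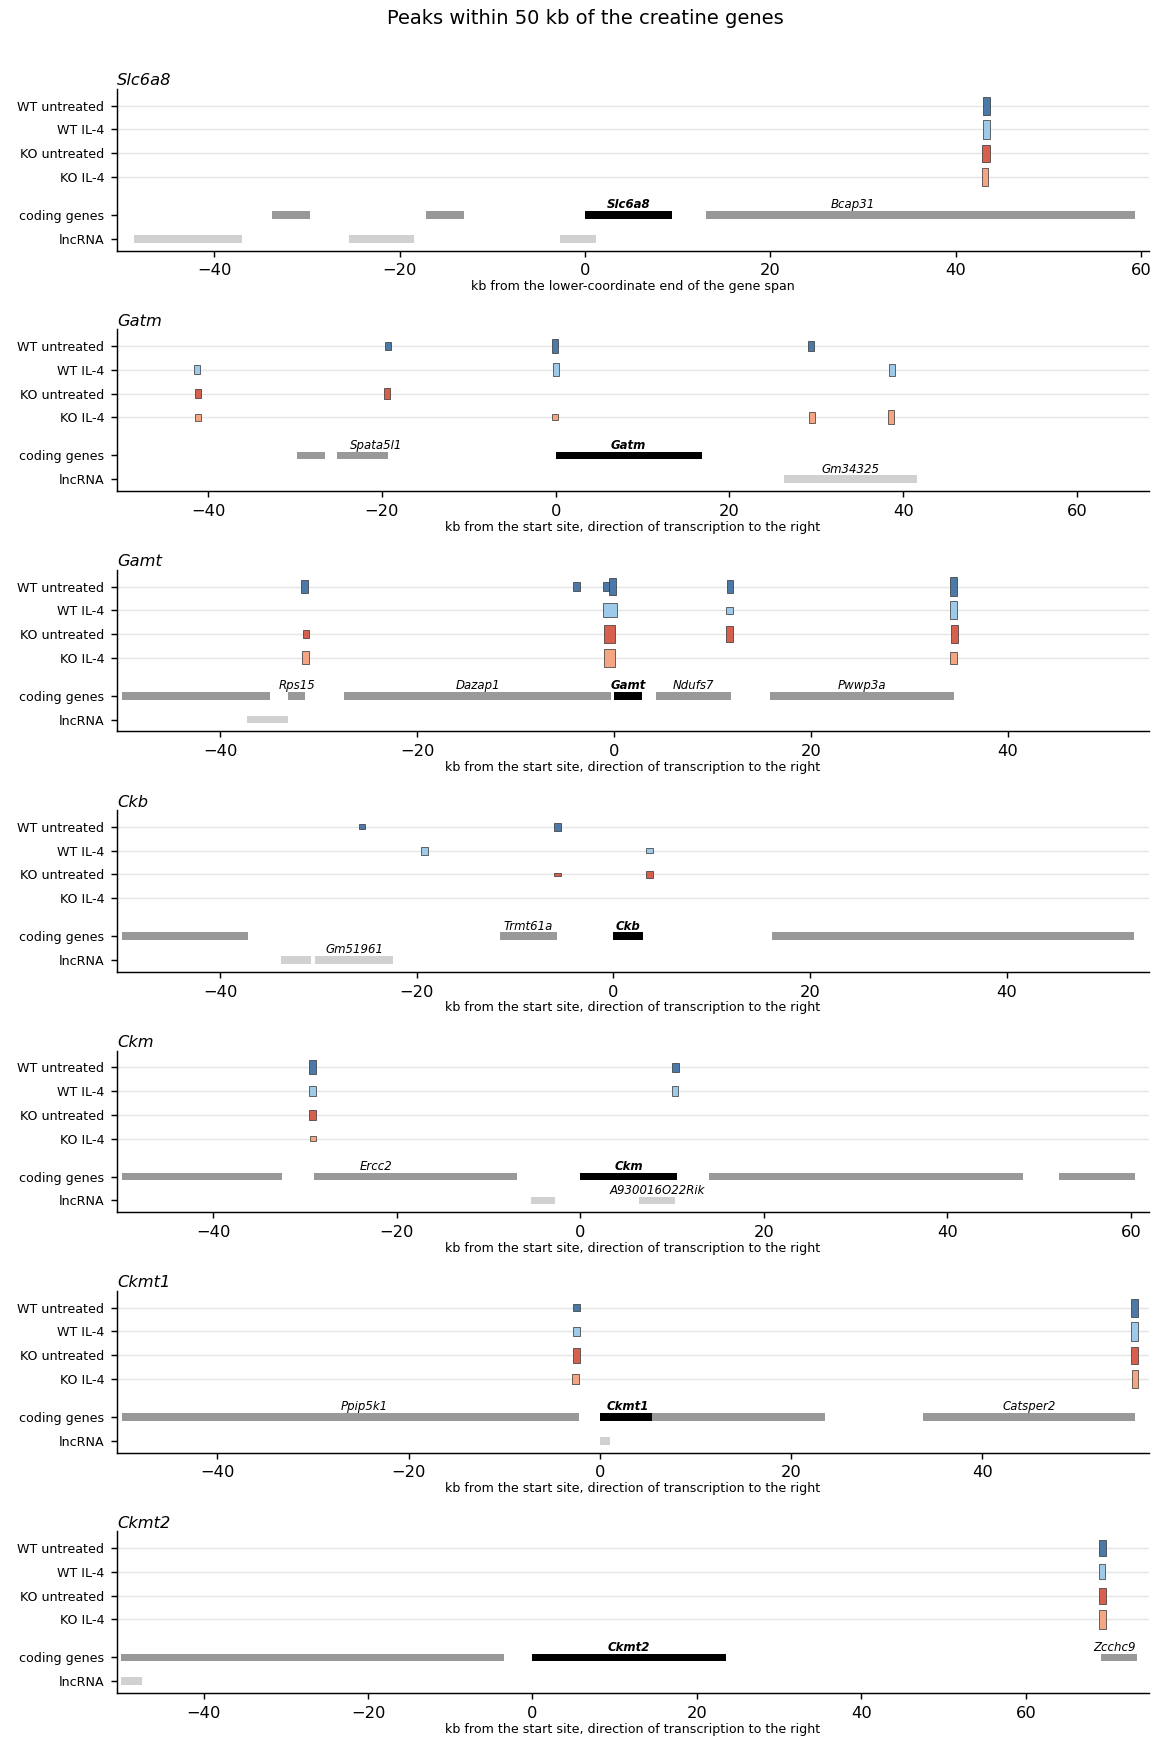
Peaks within 50 kb of each creatine gene, drawn against the distance in kb from the gene's start site with transcription to the right (for Slc6a8, from the lower-coordinate end of its span). Each bar is a peak of the library named on the left, taller for a higher score percentile and drawn at least 0.7 kb wide, and the grey and black bars below are gene spans, the creatine gene in black and named with the neighbours whose regions the text describes. Peaks sit over the starts of Gatm and Gamt, and many of the others lie at the starts of neighbouring genes.

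Slc6a8, the transporter gene that the KO lacks, offered no peak by which the genotype could be checked. Its span lies at chromosome X, 73673133 to 73682502 (mm10). The nearest peak was 33.5 kb (untreated) and 33.7 kb (IL-4) away in WT, and 33.5 kb away in both KO libraries. This single region (chrX:73715962-73716856) covers the start of Bcap31, which encodes an endoplasmic reticulum protein. It scored 222 and 167 in WT and 179 and 145 in KO (untreated first), at percentiles 84.4, 86.2, 81.1 and 79.7. The neighbouring region thus had a peak in all 4 libraries and ranked in the upper part of each list, while the transporter gene itself showed no peak in WT or KO. Absence of a locus peak in all 4 libraries was common, at 40.4% of all protein-coding genes and 67.0% of the 966 on chromosome X. Ckmt2 was the other creatine gene without a locus peak.

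Gatm encodes the arginine:glycine amidinotransferase, the first step of creatine synthesis (chromosome 2, 122594473 to 122611277, minus strand). Its start site had a peak in 3 libraries and none in KO untreated. The peak scored 119 in WT untreated (percentile 58.7), 92.8 in WT IL-4 (percentile 56.1) and 59.2 in KO IL-4 (percentile 18.1). In KO untreated the nearest peak to the gene was 19.2 kb away. The start region was thus absent from KO untreated and of low rank in KO IL-4, but in the middle of both WT lists. A peak within 1 kb of either end in all libraries but KO untreated was found at 157 of all genes, 0.717%. Of the WT untreated peaks between percentiles 50 and 60, 75.3% had a counterpart in KO untreated, and of the WT IL-4 peaks in that band 89.6%. Of the KO IL-4 peaks between percentiles 10 and 20, the band of the Gatm peak there, 59.1% had one in KO untreated. The pattern was the same with every list cut to 9930 peaks, but at a score of 100 or more the start had a peak in WT untreated alone.

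The 250 bases before the Gatm start (chr2:122611278-122611527, minus strand, GRCm38.p6, the build whose coordinates mm10 uses, from RefSeq) are shown because the peaks cover them. The WT untreated peak covers 241 of these bases, the WT IL-4 peak 199 and the KO IL-4 peak all 250. The window holds 17 CpG sites and none of the motifs that capitals mark in the other promoters.
Gatm: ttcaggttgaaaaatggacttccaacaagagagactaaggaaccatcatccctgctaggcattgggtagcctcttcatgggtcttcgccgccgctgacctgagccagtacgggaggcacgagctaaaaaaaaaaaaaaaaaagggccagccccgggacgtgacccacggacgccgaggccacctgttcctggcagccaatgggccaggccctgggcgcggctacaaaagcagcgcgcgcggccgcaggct

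Around Gatm, 4 further regions each had their own pattern over the libraries. A region 21.6 kb beyond the 3' end of the gene (chr2:122572278-122572921) had a peak in both IL-4 libraries and in neither untreated one. It scored 91.0 in WT IL-4 (percentile 54.7) and 104 in KO IL-4 (percentile 62.4), and it lies within the span of the long noncoding RNA gene Gm34325. The same region was thus gained with IL-4 in both genotypes, but at a score of 100 or more it was left in KO IL-4 alone. This pattern was held by 127 of all 20540 regions, 0.618%. Of WT IL-4 peaks between percentiles 50 and 60, 93.4% had a counterpart in WT untreated, and of KO IL-4 peaks between 60 and 70, 94.4% had one in KO untreated.

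A second region within Gm34325, 12.4 kb beyond the Gatm 3' end (chr2:122581560-122582118), had a peak in WT untreated (score 90.7, percentile 43.6) and KO IL-4 (78.0, percentile 42.3) only. It was lost with IL-4 in WT and gained with IL-4 in KO. A region 19.1 kb upstream of Gatm, over the start of the AAA-family ATPase gene Spata5l1, had a peak in the untreated libraries alone, with scores of 75.6 in WT and 84.8 in KO. An intergenic region 41.0 kb upstream (chr2:122652238-122652797) was absent only from WT untreated. It scored 69.1 in WT IL-4, and in KO 72.3 untreated and 63.2 with IL-4. No Gatm region was found in all 4 libraries.

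Gamt encodes the guanidinoacetate methyltransferase, the second and last step of synthesis (chromosome 10, 80258151 to 80261025, minus strand). Its start region had a peak in all 4 libraries. The highest peak over it scored 175 (untreated) and 104 (IL-4) in WT, and 177 (untreated) and 152 (IL-4) in KO. The percentiles were 76.6, 63.3, 80.8 and 81.8. The lowest was in WT IL-4, the shortest list, so it need not be the lowest rank from the top. A peak at a gene end in all 4 libraries was found at 22.9% of all genes. The region (chr10:80260751-80262168) is not Gamt's alone: the gene of the RNA-binding protein Dazap1 begins 337 bp away on the opposite strand, and the peaks reach over both. In WT untreated the region was split into a peak of 706 bp over the Gamt start and a weaker peak of 503 bp (score 77.2) inside Dazap1. In WT IL-4, KO untreated and KO IL-4 a single peak of 1418, 1082 and 1149 bp spanned it.

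The 250 bases before the Gamt start (chr10:80261013-80261262, minus strand, GRCm38.p6, RefSeq) lay wholly within a peak of every library. Capitals mark the GC box GGGCGG, searched on both strands, which matched 3 times on the reverse strand at 86, 67 and 22 bases before the start. At least 1 match was found in 42.6% of the 21263 promoter windows of this length.
Gamt: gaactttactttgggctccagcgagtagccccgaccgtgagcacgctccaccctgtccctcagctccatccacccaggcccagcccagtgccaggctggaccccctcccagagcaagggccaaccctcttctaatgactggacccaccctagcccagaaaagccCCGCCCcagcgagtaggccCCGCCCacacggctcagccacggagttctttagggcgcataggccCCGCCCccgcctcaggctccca

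The other peaks near Gamt lay at the starts of its neighbours. A region 8.54 kb beyond the Gamt 3' end (chr10:80248969-80249609), over the start of the complex I subunit gene Ndufs7, scored 115 in WT untreated, 63.1 in WT IL-4 and 139 in KO untreated and had no peak in KO IL-4. The KO untreated peak was at percentile 70.7, and of the peaks between 70 and 80 in that list 90.0% had a counterpart in KO IL-4. The WT untreated peak was at percentile 57.2 and the WT IL-4 peak at 24.8. In their bands, 50 to 60 and 20 to 30, the shares with a counterpart in KO IL-4 were 54.4% and 55.7%. A start site inside Dazap1 had a peak in WT untreated only (score 80.6). Of the regions within 50 kb, the start of Pwwp3a had a peak in all 4 libraries, with scores of 232, 153, 210 and 91.6 in WT (untreated, IL-4) and then KO (untreated, IL-4). The start of the ribosomal protein gene Rps15 lacked a peak in WT IL-4 only and scored 118 in WT untreated, and in KO 66.1 untreated and 94.1 with IL-4.

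Ckb, the gene of the brain-type kinase, had no peak over its start in any library (chromosome 12, 111669355 to 111672338, minus strand). What its locus held was of low rank. A region starting 0.371 kb beyond the 3' end (chr12:111668432-111668984) scored 56.5 in WT IL-4 (percentile 13.2) and 62.4 in KO untreated (percentile 20.5) and had no peak in WT untreated or KO IL-4. It was thus gained with IL-4 in WT and lost with IL-4 in KO. A peak at a gene end in exactly these libraries was found at 0.361% of all genes. With every list cut to its 9930 highest-scoring peaks, this region was left in WT IL-4 alone. A region 5.47 kb upstream, over the start of the transfer RNA methyltransferase gene Trmt61a, had a peak in the untreated libraries alone, at 76.3 in WT and 51.2 in KO. In KO IL-4 no peak lay within 50 kb of Ckb, and the nearest was 60.0 kb away. The remaining regions, 18957 bp and 25472 bp upstream, were found in WT IL-4 (66.0) and WT untreated (58.7) respectively.

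The Ckb promoter (chr12:111672339-111672588, minus strand, GRCm38.p6, RefSeq) is shown because it is rich in CpG and yet had no peak. Capitals mark the motif TATAAA and the 10-base MEF2 core motif around it, which begin 28 and 29 bases before the start and overlap. Searched on both strands, TATAAA was found in 11.6% of promoter windows and the MEF2 core in 3.06%. The window holds 16 CpG sites.
Ckb: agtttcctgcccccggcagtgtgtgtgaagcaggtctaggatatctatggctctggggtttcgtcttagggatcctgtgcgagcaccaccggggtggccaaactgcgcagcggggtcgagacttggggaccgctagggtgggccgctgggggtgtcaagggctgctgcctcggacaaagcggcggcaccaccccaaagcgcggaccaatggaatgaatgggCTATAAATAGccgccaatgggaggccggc

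Ckm, the muscle-type kinase gene (chromosome 7, 19411094 to 19421583, plus strand), had its only locus peak at the 3' end and in WT only. The region (chr7:19421177-19421688) scored 78.3 in WT untreated (percentile 34.3) and 74.8 in WT IL-4 (percentile 39.7). Both KO libraries lacked it, and there the nearest peak was 28.9 kb (untreated) and 29.0 kb (IL-4) away. The region covers the start site of A930016O22Rik, a long noncoding RNA gene that runs antisense to Ckm from this end. ATAC-seq does not tell strands apart, so the peak is assigned to neither gene. A peak at a gene end in both WT libraries alone was found at 168 of all genes, 0.768%. Of WT untreated peaks between percentiles 30 and 40, 50.9% had a counterpart in the untreated KO list and 32.1% in that of KO IL-4. For WT IL-4 peaks in that band the shares were 76.0% and 62.8%. With every list cut to the 9930 highest-scoring peaks, the region was left in WT IL-4 alone, and no library had it at a score of 100 or more.

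The start of Ckm was without a peak. Its promoter (chr7:19410844-19411093, plus strand, GRCm38.p6, RefSeq) is given for contrast with those of Gatm and Ckb. It has 6 CpG sites and no match to the GC box, TATAAA or the MEF2 core, so it carries no capitals. Other TATA variants, such as the tatataa near the end of this window, were not searched.
Ckm: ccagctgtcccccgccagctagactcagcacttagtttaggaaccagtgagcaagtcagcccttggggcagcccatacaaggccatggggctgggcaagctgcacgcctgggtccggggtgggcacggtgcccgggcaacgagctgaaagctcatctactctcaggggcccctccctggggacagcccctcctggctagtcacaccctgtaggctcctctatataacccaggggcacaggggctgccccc
A region 28.9 kb upstream of Ckm, over the start of the DNA repair helicase gene Ercc2, had a peak in all 4 libraries. It scored 125 (untreated) and 76.1 (IL-4) in WT, and 83.2 (untreated) and 54.1 (IL-4) in KO.

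Neither mitochondrial kinase gene had a peak at its start. Ckmt1 (chromosome 2, 121357773 to 121363737, plus strand) had a locus peak in all 4 libraries, 2.14 kb upstream at chr2:121354970-121355630. This region lies inside the 5' end of the span of Ppip5k1, an inositol pyrophosphate kinase gene on the opposite strand. It scored 69.3 (untreated) and 70.5 (IL-4) in WT, and 130 (untreated) and 77.3 (IL-4) in KO. The percentiles were 25.6, 34.8, 67.5 and 41.7, so that both KO libraries ranked it above both WT libraries. The far region of Ckmt1, over the starts of Pdia3 and Catsper2, was found in all 4 libraries between percentiles 77.1 and 89.7.

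Ckmt2 (chromosome 13, 91853386 to 91876923, minus strand) had no locus peak. The nearest peak was 45.4 kb away in all but KO untreated, where it was 45.5 kb away. That region covers the start of the zinc finger gene Zcchc9 and scored 160 (untreated) and 112 (IL-4) in WT, and 155 (untreated) and 207 (IL-4) in KO. Its percentile in KO IL-4, 91.5, was the highest of any peak within 50 kb of a creatine gene. Between 29.1% and 38.7% of all genes, depending on the library, lay farther from a peak than Ckmt2. For Slc6a8 the share ran from 32.6% to 43.0%.

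**Figure D2:**
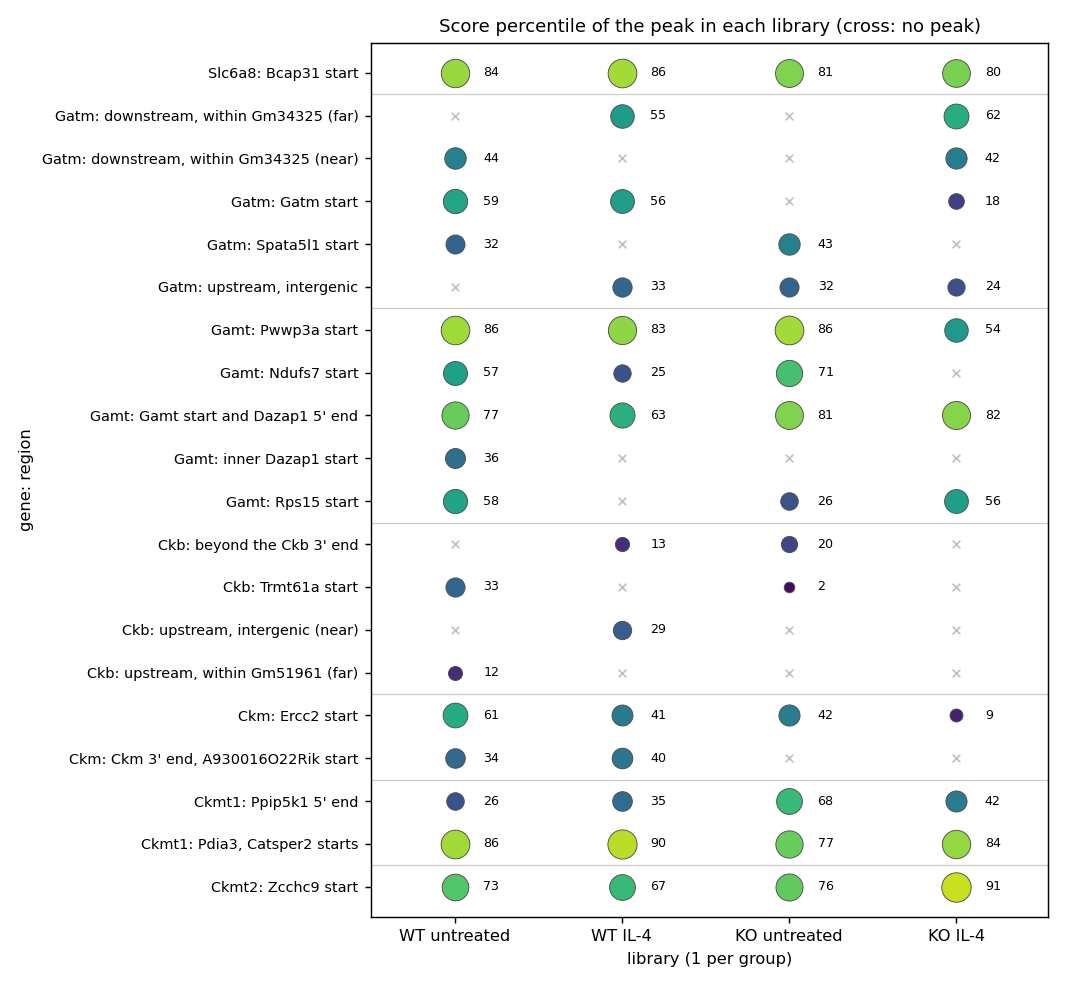
Score percentile, within its own list, of the highest peak in each of the 20 regions within 50 kb of the creatine genes (rows) in each library (columns, 1 library per group). Larger and lighter points are higher percentiles, printed beside them, and a cross is no peak. The 7 regions with a peak in every column include those over the Gamt start and the starts of Bcap31, Pwwp3a, Ercc2, Pdia3 and Zcchc9, while each of the 4 Ckb regions has at least 2 crosses.

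Peaks over the starts went partly with the CpG content of the promoters. RefSeq promoters were available for 6 of the 7 genes. The CpG observed over expected ratio of the window was 0.78 at Gatm, 0.67 at Ckb, 0.47 at Gamt, 0.23 at Ckm and 0.11 at Ckmt2. Ckmt1 has a pair of listed starts, with 0.24 and 0.46. Among all windows with a ratio of 0.6 or more, 66.7% (untreated) and 51.2% (IL-4) had a peak within 1 kb in WT, and 61.9% (untreated) and 52.4% (IL-4) in KO. Under 0.6 the shares were 16.4%, 10.4%, 14.5% and 11.3%. Gatm was thus in the class in which most starts had a peak, and Ckm and Ckmt2 in the class in which few did. Ckb and Gamt were the other way round: 28.4% of windows at 0.6 or more had, like Ckb, no peak in any library.

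**Figure D3:**
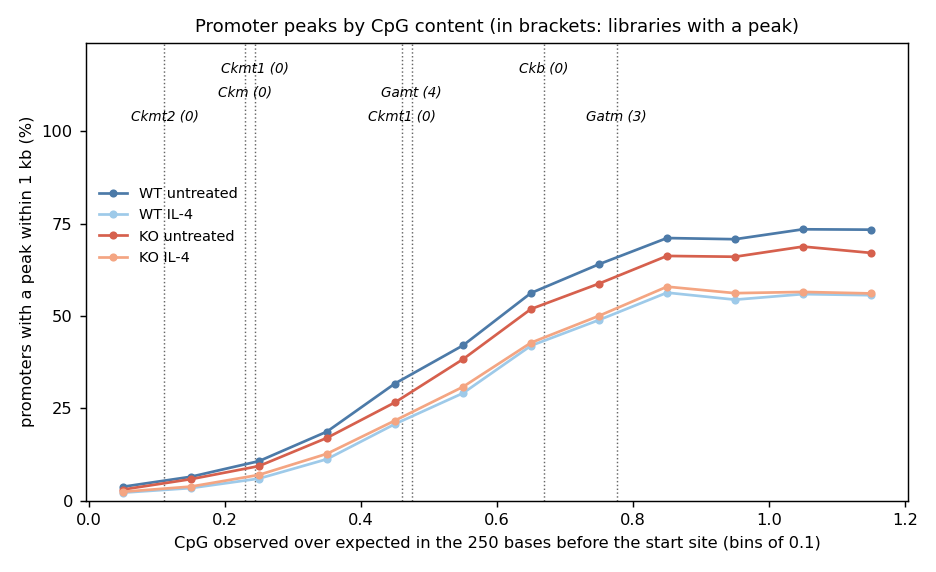
Share of promoters with a peak within 1 kb of the start site (vertical axis, percent) by the CpG observed over expected ratio of the 250 bases before the start (horizontal axis, bins of 0.1) in each library. Dotted lines mark the creatine genes, with the number of libraries that have a peak at the start in brackets. The share rises with the ratio in every library up to about 0.8; Ckb lies at 0.67 with no peak and Gamt at 0.47 with a peak in all 4.

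Peaks gained or lost between libraries at the creatine loci were at Gatm, Gamt, Ckb and Ckm. With IL-4 in WT, 1 of 7 loci (Ckb) gained a peak, beside 4.41% of all genes, and 2 (Gamt and Ckb) lost one, beside 29.5%. At equal list lengths of 9930 peaks this turned to 3 gained (Ckb, Ckm and Ckmt1), beside 11.6%, and 0 lost, beside 12.5%. With IL-4 in KO, 1 locus (Gatm, at its start) gained a peak, beside 7.95%, and 2 (Gamt, at the Ndufs7 start, and Ckb) lost one, beside 21.4%. In KO untreated against WT untreated, Ckb gained a peak, beside 9.27%, and Gatm, Gamt and Ckm lost one, beside 20.7%. At equal lengths the gain was at Ckmt1, beside 10.9%, and the loss at Gatm alone, beside 10.0%. In KO IL-4 against WT IL-4, 0 loci gained a peak, beside 13.9%, and 3 (Gamt, Ckb and Ckm) lost one, beside 12.0%. The comparisons share libraries, so these counts are not independent of each other. Of the 6 locus peaks lost in the KO against WT comparisons, that at the Gatm start scored 119 in WT untreated, and the other 5 scored between 56.5 and 80.6.

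Within 50 kb, IL-4 in WT went with gains at 2 genes (Gatm and Ckb), beside 10.0% of all genes, and losses at 3 (Gatm, Gamt and Ckb), beside 50.0%. In KO it went with a gain at 1 (Gatm), beside 16.9%, and losses at the same 3, beside 39.2%. KO untreated against WT untreated gave gains at 2 (Gatm and Ckb), beside 20.0%, and losses at 4 (Gatm, Gamt, Ckb and Ckm), beside 38.9%. KO IL-4 against WT IL-4 gave gains at 2 (Gatm and Gamt), beside 27.6%, and losses at 3 (Gamt, Ckb and Ckm), beside 24.4%.

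At gene ends, 3 of the 7 genes had a peak in WT untreated, beside 38.2% of all genes, and 4 in WT IL-4, beside 28.4%. In KO untreated there were 2, beside 34.8%, and in KO IL-4 2, beside 29.0%. Over known start sites alone, the counts were 2 (Gatm and Gamt) in WT untreated, beside 40.7%, 2 in WT IL-4, beside 30.0%, 1 in KO untreated, beside 37.2%, and 2 in KO IL-4, beside 31.1%. The difference between these counts came from the 3' ends of Ckb and Ckm.

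Genes linked to the creatine genes by pathway, partner protein or gene family were counted in 5 lists. The lists were chosen with earlier results of these data known and are given as counts only. Over all protein-coding genes, 38.2% (untreated) and 28.4% (IL-4) had a gene-end peak in WT, and 34.8% (untreated) and 29.0% (IL-4) in KO. With IL-4, 11.0% lost and 1.17% gained one in WT, and 7.90% lost and 2.10% gained one in KO. Most genes had no such peak to lose. Of the 8358 genes with one in WT untreated, 2409 lost it with IL-4, and of the 7618 in KO untreated, 1728 did. Of 28 genes of arginine and ornithine metabolism, 15 (untreated) and 12 (IL-4) had a gene-end peak in WT, and 15 (untreated) and 10 (IL-4) in KO. Odc1, which makes putrescine from ornithine, Srm, the spermidine synthase gene, Oat, the ornithine aminotransferase gene, and Azin1, an antizyme inhibitor gene, had one in every library, none below percentile 64.4. With IL-4, gene-end peaks were lost at 3 genes in WT (Azin2, Pycr1 and Prodh) and at 5 in KO (Azin2, Nos3, Sat1, Amd1 and Slc7a1), and 0 were gained in either. The highest-scoring locus peak lost or gained in any of the 4 comparisons was at Sat1, a polyamine acetyltransferase gene. It scored 164 in KO untreated, and KO IL-4 was the only library without it. At Arg1, the arginase gene, which had no gene-end peak, a locus peak of 121 in WT IL-4 was likewise missing from KO IL-4 alone and was present in both untreated libraries.

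The methionine cycle supplies the methyl group that Gamt uses. Its list of 22 genes also held genes of other methyltransferases. Of the 22, 14 (untreated) and 12 (IL-4) had a gene-end peak in WT, and 14 (untreated) and 13 (IL-4) in KO. Over all genes the shares were 38.2% and 28.4% in WT, and 34.8% and 29.0% in KO. In all 4 libraries 11 had one, a share of 50.0% beside 22.9% of all genes. Prmt1, a protein arginine methyltransferase gene, was at percentile 92.1 or above in every library, and Mtr and Mthfd1 at 77.9 or above. Ahcy, whose enzyme removes the by-product of methylation, and Shmt1 lost theirs with IL-4 in WT, Pemt lost its own in KO, and 0 genes gained one. The highest-scoring locus peaks lost between 2 libraries were at Shmt1 (178), Prmt1 (158) and Mtrr (145) in WT untreated, each missing from WT IL-4 alone, and at Pemt (125 in KO untreated), missing from KO IL-4 alone.

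Of 26 adenylate and other phosphotransfer kinase genes, 13 (untreated) and 9 (IL-4) had a gene-end peak in WT, and 12 (untreated) and 11 (IL-4) in KO. These counts stood beside 38.2% and 28.4% of all genes in WT, and 34.8% and 29.0% in KO. Prkab2, a regulatory subunit of the energy sensor AMPK, and Nme7 ranked between percentiles 93.0 and 96.3 in every library. With IL-4, 5 genes lost a gene-end peak in WT (Ak9, Guk1, Cmpk1, Prkab1 and Ampd2) and 2 in KO (Guk1 and Cmpk2). Ak3 gained one in both genotypes, at the low percentiles of 17.1 in WT IL-4 and 10.2 in KO IL-4. Cmpk1 had a gene-end peak in WT untreated only (percentile 73.1). The highest-scoring locus peaks lost with IL-4 in WT were at Cmpk1 (161), found in WT untreated alone, at Prkab1 (149) and Ak7 (141), missing from WT IL-4 alone, and at Prkab2 (136), found in both untreated libraries.

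Of 13 mitochondrial genes whose proteins work beside mitochondrial creatine kinase, such as the porins and the adenine nucleotide carriers, 11 (untreated) and 7 (IL-4) had a gene-end peak in WT, and 10 (untreated) and 7 (IL-4) in KO. The shares of all genes were 38.2% and 28.4% in WT, and 34.8% and 29.0% in KO. Atp5b, the porin gene Vdac2 and the phosphate carrier gene Slc25a3 had one in every library, none below percentile 70.7. The carrier gene Slc25a4 had one in all libraries but WT IL-4, with a peak of 182 in WT untreated. With IL-4, 4 of the 11 genes lost their gene-end peak in WT, among them Slc25a4, Slc25a5 and Tspo. In KO, 3 of the 10 did (Vdac1, Slc25a5 and Ppif). Among all genes with such a peak when untreated, 2409 of 8358 lost it in WT and 1728 of 7618 in KO. Whether the genotypes differed was not tested. Away from the gene ends, locus peaks lost with IL-4 in WT lay at the hexokinase genes Hk1 (147), which had no gene-end peak, and Hk2 (131), which had one in every library. At Slc25a31, also without a gene-end peak, a locus peak of 126 was missing from KO untreated alone.

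Of 19 other SLC6 transporter genes, 15 had, like Slc6a8, no gene-end peak in any library, a share of 78.9% beside 58.3% of all genes. Slc6a6, the taurine transporter gene, had one in all 4 libraries, at percentiles 79.6 (untreated) and 9.39 (IL-4) in WT, and 67.8 (untreated) and 27.6 (IL-4) in KO. Both IL-4 libraries thus ranked it below both untreated ones. Slc6a13, a GABA transporter gene, also had one in all 4, between percentiles 3.73 and 58.4. Slc6a19 had one in WT untreated only and Slc6a12 in KO untreated only, at percentiles 6.31 and 0.186. The highest-scoring locus peaks lost with IL-4 in WT were at Slc6a16 (112), also found in KO untreated, Slc6a19 (80.4), found in WT untreated alone, and Slc6a11 (73.5), also found in KO IL-4. At Slc6a9 a locus peak of 75.7 in KO untreated was found in both KO libraries and in neither WT library.

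**Figure D4:**
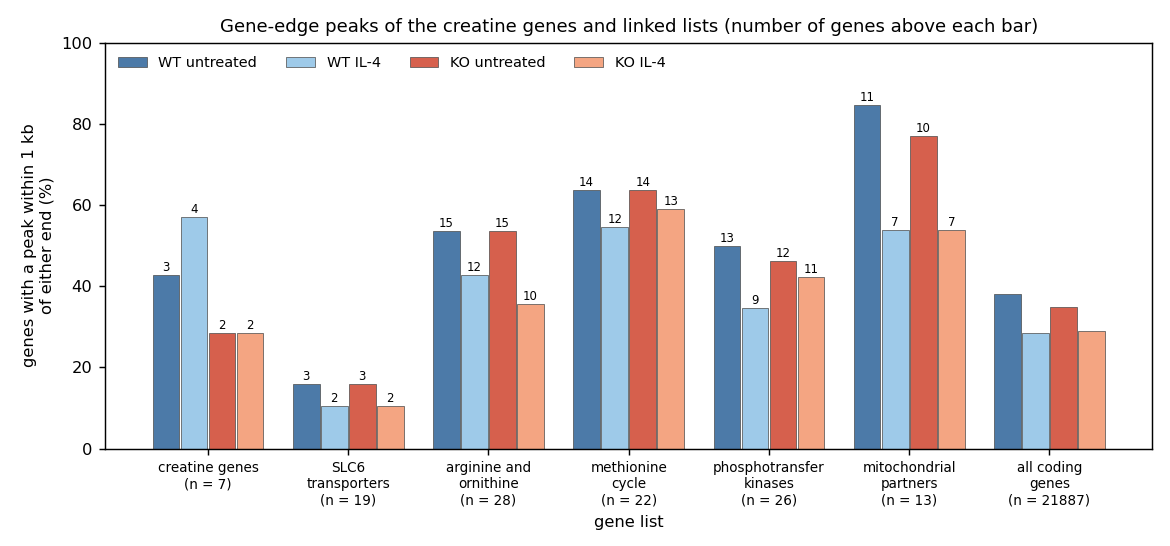
Share of genes with a peak within 1 kb of either gene end (vertical axis, percent) for the creatine genes, 5 linked gene lists and all protein-coding genes, in each library (bars, 1 library per group, with no error). The number of genes is above each bar. The creatine genes range from 2 to 4 of 7. The mitochondrial partners reach 11 of 13 in WT untreated, where 38.2% of all genes had such a peak.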

How the data were processed

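Peak lists were analysed as deposited, 1 per library. Per the submitters' processing notes, the tools were Bowtie2 2.2.5, MACS 1.4.2 and HOMER and the build was mm10, without roles or parameters. Each peak carries a score that the authors deposited, whose unit no header states. With read depth unknown, so is the precision with which a peak counts as present or absent.

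Gene spans were those of GRCm38.p6 in RefSeq, on chromosomes 1 to 19, X and Y. Start sites and promoters came from a RefSeq table that held 6 of the 7 creatine genes. Peaks sharing at least 1 bp were counterparts, and a peak without a counterpart counted as gained or lost. Percentiles are mean ranks within a list. A gene end is 1 kb around either end of the span. CpG ratios and 10 motifs were computed on the 250 bases before each start, and the CpG threshold of 0.6 was set after the data were seen, as were the shares of equally ranked peaks with a counterpart. No p-value was computed.

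The members and gene lists were chosen with earlier results of these data known. Named are all 7 genes, the neighbours their peaks lie at, up to 4 genes per list with the highest gene-end peak (by its lowest percentile) and up to 4 with the highest locus peak gained or lost in a comparison, and the 3 genes most like each member. Other list genes named for gained or lost gene-end peaks are examples chosen after their values were seen, and some genes that these rules name are not reported here. Alternatives tried were equal list lengths, peaks scoring at least 100, reciprocal overlap of 50%, a counterpart within 500 bp, loci of 50 kb, gene ends of 2.5 kb and start sites only. Python 3.11.15, NumPy 2.4.6, pandas 2.3.3 and Matplotlib 3.10.9 were used, with overlaps and ranks tested on simulated peaks. Protein sequences were not analysed here, although a comparison of them had been planned.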

Additional observations from a re-analysis of the deposited data

Results flagged for a closer look

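At 2 regions IL-4 went with opposite changes in the genotypes, a difference that was not tested. The region 12.4 kb beyond the Gatm 3' end scored 90.72 in WT untreated and 78.01 in KO IL-4 and had no peak in WT IL-4 or KO untreated. Regions with that pattern made up 3.04% of all regions. Of WT untreated peaks between percentiles 40 and 50, 37.9% had a counterpart in WT IL-4. Of KO IL-4 peaks in that band, 84.4% had one in KO untreated. The region beyond the Ckb 3' end scored 56.47 in WT IL-4 and 62.41 in KO untreated and had no peak in the other libraries. That pattern was held by 1.01% of all regions. Of WT IL-4 peaks between percentiles 10 and 20, 73.3% had a counterpart in WT untreated. Of KO untreated peaks between 20 and 30, 33.4% had one in KO IL-4. At equal list lengths the Ckb region was in WT IL-4 alone, and at a score of 100 or more no library had either region.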

How the results depend on the processing

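No paired analysis was possible because each group held 1 library, so any comparison had fewer than the 2 pairs that a block needs. With a score of 100 or more, the locus peaks of the creatine genes fell to 3 (untreated) and 1 (IL-4) in WT, and 3 (untreated) and 1 (IL-4) in KO. Then 0 loci gained a peak with IL-4 in WT, beside 0.932% of all genes, and 0 in KO, beside 2.38%. With IL-4, Gatm and Gamt lost one in WT, beside 24.6%, and Gamt and Ckmt1 in KO, beside 14.9%. In KO against WT untreated 1 locus (Gatm) lost a peak, beside 14.9%, and 1 (Ckmt1) gained one, beside 3.93%. After IL-4 0 lost a peak, beside 5.64%, and 0 gained one, beside 7.05%. The loci named thus changed with the setting. At gene ends, 1 gene kept a peak in WT IL-4, KO untreated and KO IL-4 each. At equal list lengths (9930 peaks) the locus peaks were 3 (untreated) and 6 (IL-4) in WT, the opposite order to the full lists, and 3 and 3 in KO. With IL-4 in WT 3 loci (Ckb, Ckm and Ckmt1) then gained a peak, beside 11.6% of all genes, and 0 lost one, beside 12.5%. In KO 1 (Gamt) lost one, beside 13.0%, and 1 (Gatm) gained one, beside 11.5%. In KO against WT untreated 1 (Gatm) lost one, beside 10.0%, and 1 (Ckmt1) gained one, beside 10.9%. In KO against WT after IL-4, 3 (Gamt, Ckb and Ckm) lost one, beside 12.6%, and 0 gained one, beside 12.7%. Those were the same loci as in the full lists. KO untreated had 1 gene with a gene-end peak. With reciprocal overlap 2 loci gained a peak with IL-4 in WT, since the wide Gamt peak of WT IL-4 then had no counterpart. Loci of 50 kb gave 17, 14, 13 and 12 peaks, and 2 loci with a gain in each of WT with IL-4, KO against WT untreated and KO against WT after IL-4. With start sites only, 2 genes had a peak in WT IL-4 and 1 in KO untreated. Over the 5 linked lists together (108 genes), locus peaks went from 127, 71, 115 and 88 to 73, 29, 59 and 31 at a score of 100 or more and to 266, 155, 232 and 180 with loci of 50 kb. At equal lengths WT untreated had 79, and at a score of 100 or more gene-end peaks were 21 in WT IL-4 and 24 in KO IL-4. At a score of 100 or more the Ckmt1 region was in KO untreated alone, and the region 21.6 kb beyond Gatm in KO IL-4 alone. The Gamt start had a peak in all 4 libraries under the score and length alternatives, and the Gatm start in 3 at equal lengths but in WT untreated alone at a score of 100 or more. The Ckm 3' region had a peak in WT IL-4 alone at equal lengths and in no library at a score of 100 or more. Depth, which is unknown, limits every absence.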

Other observations

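Among genes on other chromosomes, those whose highest gene-end peaks had the percentiles nearest to a creatine gene over the 4 libraries were found by Euclidean distance, with 0 for no peak. For Gatm they were Tm2d3 (distance 2.47), Slc16a10 (7.68) and Rab2a (13.8), which like Gatm lacked a peak in KO untreated. For Gamt they were Rab37 and Slc9a3r1 (3.93 each, with the same peaks) and Hes6 (5.46). For Ckb they were Cybc1 (3.60), Pde7b (3.96) and Drg2 (4.83), and for Ckm Tmem109 (2.35), Ubqln1 (4.45) and Nfkbil1 (6.24).

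Regions near the creatine genes with a known start site within 1 kb numbered 13, and 6 of them had a peak in all 4 libraries. Of the 7 regions with no known start within 1 kb, 1 did, at the 5' end of Ppip5k1. Over all 20540 regions the share was 32.5%. That share was not split by start site, so this split cannot be read as a trait of the creatine genes.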
